A study of Mus musculus with 3 samples.

Results

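Droplet barcodes with more than 20% of their unique molecular identifiers (UMIs, each standing for 1 captured RNA molecule) from the 13 mitochondrial genes of the count tables made up 5434 of 22248 barcodes in 3 single-cell libraries of sorted mouse colon leukocytes. They were selected on that measured share alone, so the share itself is a description and not a finding. By library they numbered 1896 of 7903 barcodes in C (24.0%, exact binomial interval 23.1 to 24.9%), 2396 of 8566 in T1 (28.0%, 27 to 28.9%) and 1142 of 5779 in T3 (19.8%, 18.7 to 20.8%). The remaining 6007, 6170 and 4637 barcodes of the same libraries, at or below 20%, are the comparison set throughout. Intervals cover counting error only, at 95%. Each group was 1 library and barcodes of 1 library are not replicates, so no p-value was computed and differences between libraries have no replicate check.

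The mice were C57BL/6 and, per the labels, male and 6 to 8 weeks old when the model was set up. Library C came from healthy colon of mice without the model. Libraries T1 and T3 came from colon with low-grade (T1) and high-grade (T3) intraepithelial neoplasia. Those mice received the carcinogen azoxymethane (AOM, 12 mg/kg, intraperitoneal) and then 3 cycles of 2.5% dextran sodium sulfate (DSS) in the drinking water, 7 days on and 14 days of plain water. Relative to C, exposure to AOM and DSS cannot be told apart from the neoplasia, and how many mice gave each library is not stated in the sources used here. All 3 libraries were made with 10x Genomics 3′ v3.1 chemistry from cells sorted for CD45, the surface phosphatase encoded by Ptprc that leukocytes carry. Barcodes shared between libraries by their letters numbered 39, 35 and 35 for the 3 pairs of libraries, and at most 2 of them were above the cut in both libraries of a pair.

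As background, mitochondrial messenger RNA is made and kept inside the organelle, nuclear RNAs such as Malat1 stay in the nucleus, and most messenger RNA, including that of ribosomal proteins, lies in the cytosol. A high mitochondrial share is often used as a sign of a damaged cell whose cytosolic RNA has leaked out, and such barcodes are commonly left out before analysis. Some cell types also hold many mitochondria, so the share alone does not tell the state of a cell.

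The barcodes above the cut carried little RNA of nuclear genes, whereas their mitochondrial UMIs were as many as elsewhere or more. The cut divides barcodes by the ratio of these counts, so both differences follow in part from the selection and are descriptions. Their median count of non-mitochondrial UMIs was 644 in C, 624 in T1 and 595 in T3, against 4645, 4951.5 and 1683 in the comparison sets. Their median count of mitochondrial UMIs was 339.5, 355 and 289, against 276, 297 and 149. The smallest total was 500 UMIs in every library, so barcodes below that were not analysed here. In all, the barcodes above the cut held 30.2%, 33.5% and 32.7% of the mitochondrial UMIs of C, T1 and T3 and 4.36%, 5.22% and 5.41% of the other UMIs. Fewer than 200 genes were detected in 161, 265 and 79 of them. No doublet caller was run on these barcodes.

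**Figure D1:**
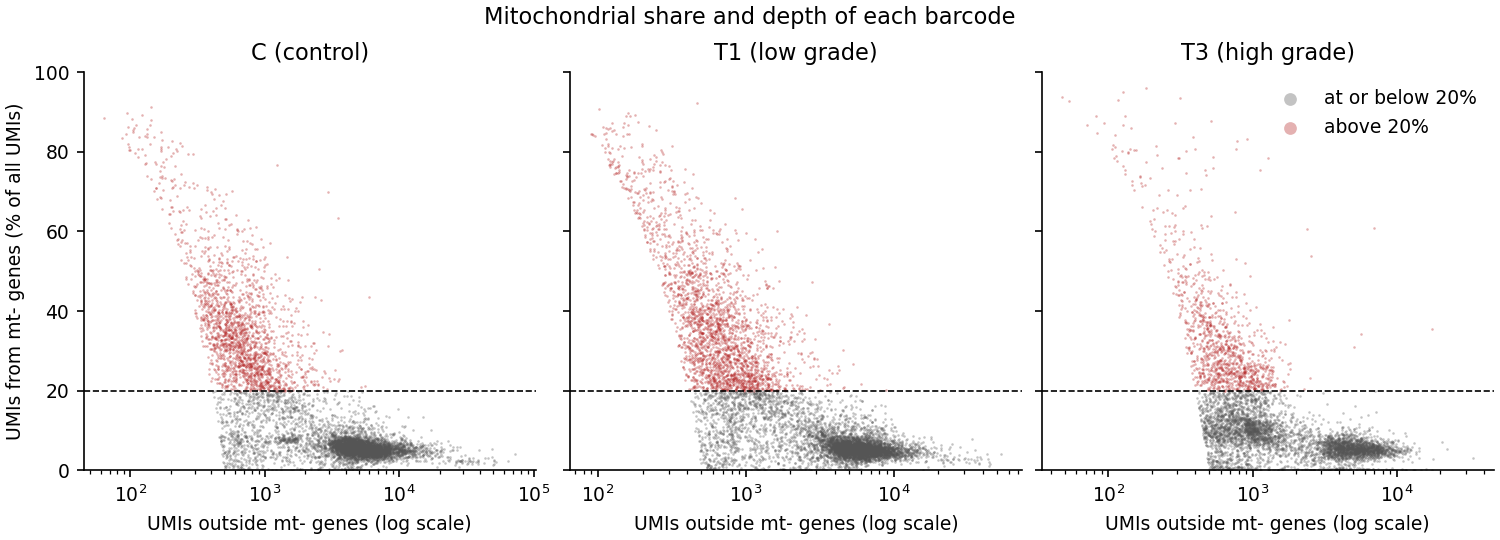
Percent of UMIs from mitochondrial genes against non-mitochondrial UMIs per barcode (log axis) in C, T1 and T3, with the line at 20%. Barcodes above the line lie mostly at low counts, with median non-mitochondrial counts of 644, 624 and 595.

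The 13 mitochondrial genes, which encode subunits of the respiratory chain and ATP synthase, divided the mitochondrial UMIs among themselves almost alike on both sides of the cut. Their log2 ratios of shares, above over at or below, lay between -0.32 (mt-Nd6 in T3, the only gene here transcribed from the light strand) and 0.08 (mt-Cytb in C and T1). mt-Atp6, a subunit of ATP synthase, took 22.6%, 23.5% and 24.2% of mitochondrial UMIs above the cut in C, T1 and T3, against 22.2%, 22.9% and 23.3%. mt-Co1, the catalytic subunit of cytochrome c oxidase, took 13.2%, 12.2% and 16.0%, against 14.8%, 14.3% and 16.5%, and was lower above the cut in all 3 libraries.

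Non-mitochondrial genes were compared as CPM, the usual depth-scaled count, here with the non-mitochondrial UMIs summed over all barcodes of a set as the total. A gene was called higher or lower when the ratio was at least 2-fold, the exact interval of the ratio excluded equality and both sets together held at least 100 UMIs. In C 3352 of 9876 genes were higher above the cut (33.9%) and 626 were lower (6.34%). In T1 3146 of 9661 were higher (32.6%) and 381 lower (3.94%), and in T3 2518 of 8155 were higher (30.9%) and 344 lower (4.22%). Of 8061 genes measured in every library, 1455 were higher in all 3 (18.0%) and 169 lower in all 3 (2.10%). The sets were parted by a value of the same UMIs and differ in depth, so these shares are a background and nothing is read from them.

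The median log2 ratio over all measured genes was 0.64 in C, 0.61 in T1 and 0.67 in T3, so a gene at 0 was low relative to the others. Of the genes called, 84.3%, 89.2% and 88.0% were higher in C, T1 and T3, and 34.6%, 38.2% and 21.4% were higher once ratios were centred on those medians. The same genes were also compared between barcodes of a like depth, an analysis chosen after seeing the data. Both sets were limited to the range between the 10th and 90th percentile of non-mitochondrial UMIs above the cut, 342 to 1266 UMIs in C, 282 to 1298 in T1 and 325.3 to 1112.5 in T3. That left 1520 barcodes above and 644 at or below in C, 1922 and 822 in T1, and 912 and 1770 in T3. Within this range the depths were alike but not equal, with median non-mitochondrial UMIs of 644, 623 and 595 above the cut and 752.5, 794.5 and 752 below it. The median mitochondrial UMIs were 316, 320 and 267.5 above the cut and 81, 104.5 and 89 below it. At a like non-mitochondrial count the cut itself sets that difference in mitochondrial UMIs.

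At like depth few differences in C and T1 reached the 2-fold rule. In C 36 of 2647 genes were higher (1.36%) and 18 lower (0.680%), in T1 29 of 3139 were higher (0.924%) and 20 lower (0.637%), and in T3 258 of 2901 were higher (8.89%) and 139 lower (4.79%). The median ratio over all genes was then 0.08, 0.13 and 0.40. Of the genes called higher over all barcodes and measured again, 32 of 1076 in C, 25 of 1206 in T1 and 224 of 968 in T3 were called higher at like depth too. Of 2378 genes measured at like depth in all 3 libraries, 2 were higher in all (0.0841%) and 1 was lower (0.0421%). These were Mfsd4a, which encodes a membrane transporter of the major facilitator family, the predicted gene Gm26518, and Iglc1, a light chain constant gene of immunoglobulins. Genes called lower over all barcodes and measured again kept a median log2 ratio of -0.51 in C and -1.12 in T3, against -0.04 in T1.

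The ribosomal protein genes, which encode the protein part of the ribosome and have short, abundant cytosolic messengers, had the lowest median ratio of the gene lists in each library over all barcodes. Of 83 measured members 79 were lower in C, 77 in T1 and 80 in T3, and none was higher. Their median log2 ratio was -1.74, -1.36 and -1.59, and they made up 9.64%, 13.6% and 12.1% of non-mitochondrial UMIs above the cut, against 32.7%, 35.3% and 36.3%. Rps15a stood at 1476, 2182 and 2036 CPM above the cut in C, T1 and T3, against 6606, 7336 and 7690 CPM. Rpl34 stood at 940, 1475 and 1339 CPM, against 4414, 4848 and 4531 CPM. At like depth none of 80 and 81 measured members was called lower in C and T1, and 70 of 80 were in T3. Summed, they still stood at 93369 CPM against 139103 CPM in C at like depth, a log2 ratio of -0.58, and at -1.16 in T3, whereas in T1 the ratio was -0.02. Their median ratio was not the lowest of the lists at like depth. It was -0.59 in C and -0.002 in T1, against -0.83 and -1.04 for histone genes, and -1.16 in T3, against -1.64 for immunoglobulin constant genes.

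The share of ribosomal protein UMIs was also read in single barcodes. At like depth the median share was 9.08% above the cut and 8.98% below it in C, 11.6% and 9.08% in T1, and 11.7% and 34.1% in T3. A share under 20% was found in 98.0%, 88.9% and 90.8% of the barcodes above the cut at that depth and in 70.5%, 81.1% and 46.4% of those below it. Over all barcodes at or below the cut, it was found in 13.7%, 18.7% and 24.95%.

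**Figure D2:**
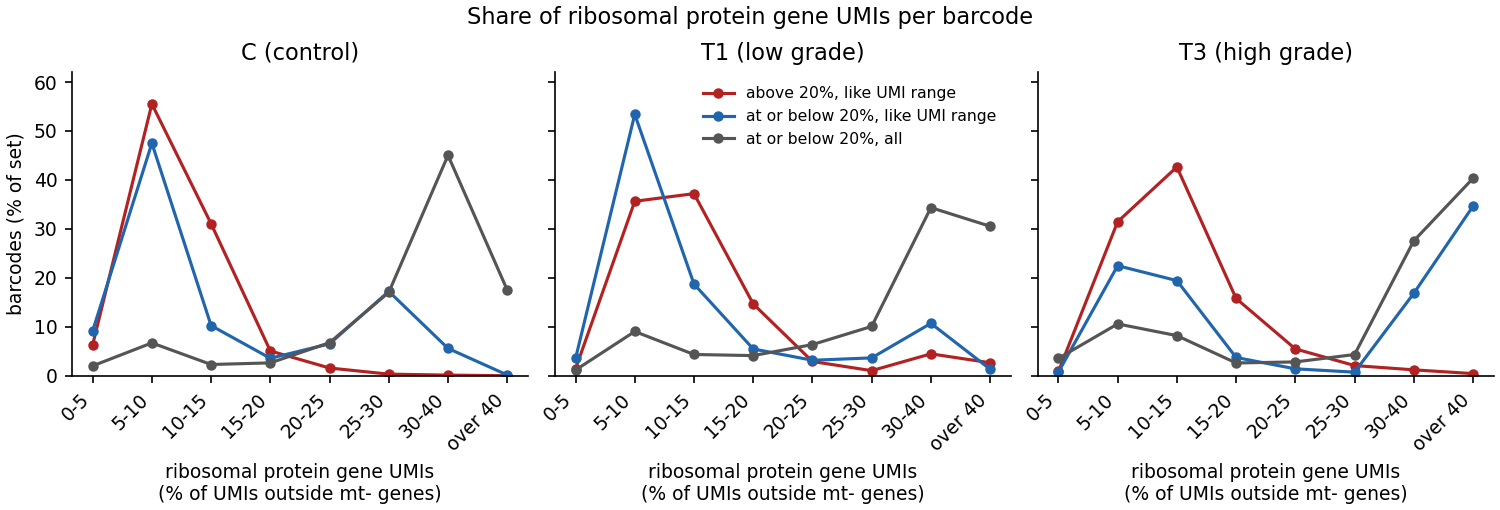
Percent of barcodes in each bin of the share of non-mitochondrial UMIs from ribosomal protein genes in C, T1 and T3, for barcodes above 20% mitochondrial UMIs of a like UMI range (red), at or below 20% of a like UMI range (blue) and all at or below 20% (grey). In C and T1 the low-count barcodes below the cut have medians of 8.98% and 9.08%, near the medians above it, and in T3 a median of 34.1%. In all 3 libraries they fall into a low and a high group, with 23.0%, 15.7% and 52.2% of them over a share of 25%.

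Other abundant messengers of the cytosol were lower too. Of 16 cytoskeletal and translation genes, a list added after seeing the data, 11 were lower in C, 8 in T1 and 11 in T3, and at like depth 0, 0 and 6. Tpt1, which encodes the abundant translationally controlled tumour protein, stood at 2527, 3686 and 3997 CPM, against 11106, 12504 and 14095 CPM. Its log2 ratio was -2.14, -1.76 and -1.82, and at like depth -0.83, -0.05 and -1.27. Of the nuclear genes for oxidative phosphorylation, whose proteins join those of the mitochondrial genome in the respiratory chain, 46 of 76 were lower in C, 19 of 76 in T1 and 12 of 75 in T3, and 1 was higher in C. Their median log2 ratio was -1.06, -0.80 and -0.49, whereas the mitochondrial share that chose the barcodes was high by construction. At like depth 0, 0 and 7 of them were lower.

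RNAs held in the nucleus had high levels above the cut. Of the measured members of that list 5 of 7 were higher in C, 6 of 7 in T1 and 4 of 6 in T3, none was lower, and at like depth none was called. Malat1, a long non-coding RNA of nuclear speckles (GRCm38 chr19:5795690-5802672, minus strand), took 95600, 73025 and 71242 CPM in C, T1 and T3, against 28461, 27857 and 26786 CPM. Its log2 ratio was 1.75, 1.39 and 1.41 over all barcodes and 0.44, 0.10 and 0.63 at like depth. Neat1, the RNA scaffold of paraspeckles, had ratios of 1.34, 1.28 and 1.09, and of 0.12, 0.39 and 0.63 at like depth.

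Xist, the RNA that coats the inactive X chromosome (chrX:103460366-103483254, minus strand), stood at 6037, 5218 and 4915 CPM above the cut in C, T1 and T3, against 1361, 1270 and 1414 CPM. Its log2 ratio of 2.15, 2.04 and 1.8 was 0.90, 0.80 and 0.96 at like depth, under the 2-fold rule in each library. Xist at this level in both sets goes against the label of male mice. Tsix, its antisense partner (chrX:103431517-103484957, plus strand), had ratios of 2.37, 2.10 and 2.04, and at like depth of 1.49, 0.90 and 1.49, past the rule in C and T3. The annotated spans of Xist and Tsix overlap and whether the counting used strand is not given in the sources used here, so reads of these genes may be split wrongly.

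Long genes were higher above the cut and short ones lower. Over protein-coding genes of the GENCODE M21 annotation on GRCm38, which matched at least 99.96% of the measured genes of each library, the median log2 ratio was -0.31, -0.34 and -0.18 for gene spans under 2 kb, introns included. It was 1.27, 1.21 and 1.06 for spans over 200 kb. Ktn1, which encodes a receptor for the motor protein kinesin on the endoplasmic reticulum and spans 91.4 kb, stood at 462, 453 and 262 CPM in C, T1 and T3, against 87.3, 80.9 and 77.2 CPM. At like depth the medians of the shortest and longest spans were -0.39 and 0.26 in C, -0.08 and 0.15 in T1, and -0.36 and 0.65 in T3. Whether reads in introns were counted is not given in the sources used here, and its part in the result was not tested.

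**Figure D3:**
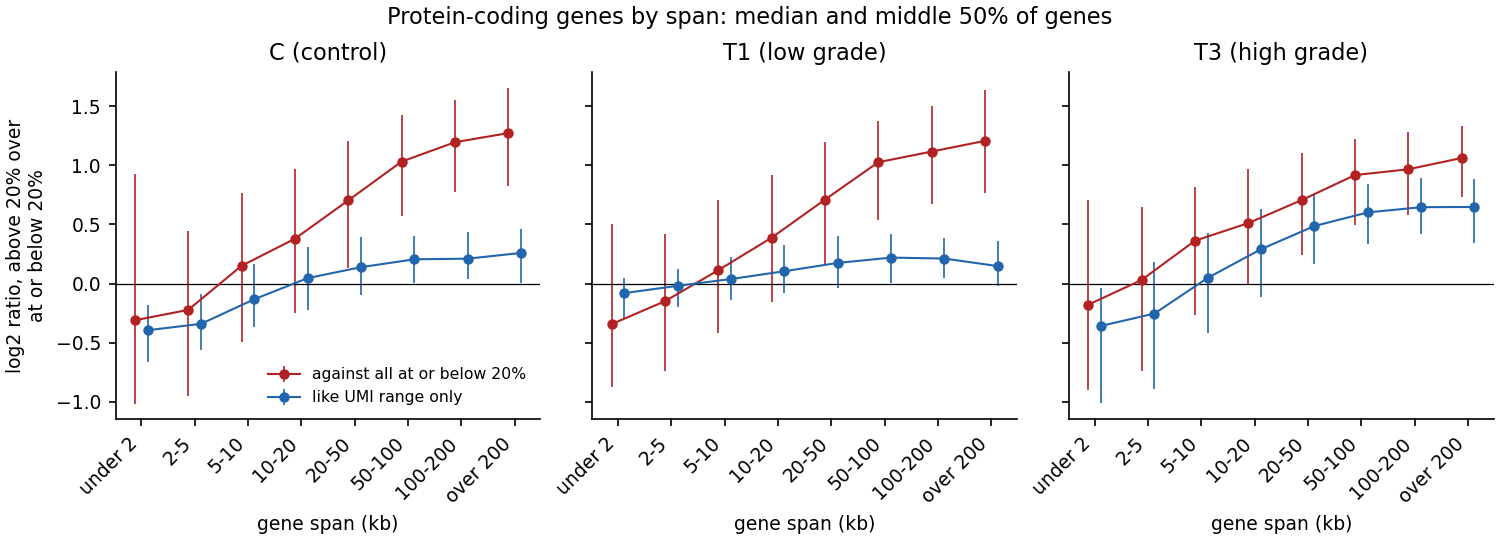
Median log2 ratio of CPM (points) with the range of the middle 50% of genes (bars), barcodes above over at or below 20%, for protein-coding genes by annotated gene span in kb, over all barcodes (red) and in a like UMI range (blue), for C, T1 and T3. Over all barcodes the medians run from -0.31, -0.34 and -0.18 under 2 kb to 1.27, 1.21 and 1.06 over 200 kb, and they span a smaller range at like depth.

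Lars2, the mitochondrial leucyl-tRNA synthetase encoded in the nucleus (chr9:123366927-123462666, plus strand), bears on the leucyl-tRNA synthetase (LARS) B cells that the series' title names. It stood at 4975 CPM above the cut in C, 4635 in T1 and 4869 in T3, against 508, 863 and 1216 CPM. The log2 ratio was 3.29, 2.43 and 2.0 over all barcodes. At like depth it was 0.25, -0.49 and 0.40, so that in T1 Lars2 was lower above the cut than below it. A Lars2 UMI was found in 53.3%, 65.4% and 70.9% of barcodes above the cut, against 82.8%, 91.7% and 78.0% of the deeper barcodes below it. Lars, the cytosolic leucyl-tRNA synthetase, stood at 53.8, 46.5 and 43.1 CPM, against 30.2, 27.5 and 25.3 CPM, under the 2-fold rule in each library.

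Lars2 was concentrated in those barcodes above the cut that were also rich in 3 predicted genes overlapping ribosomal DNA. These genes are Gm42418 (chr17:39846958-39848788), AY036118 (chr17:39847113-39848035, within Gm42418 on the other strand) and Gm26917 (chr17:39843013-39846341), which are known to collect reads of ribosomal RNA. All 3 were higher above the cut in C and T1. Gm42418 and Gm26917 were higher in T3, where AY036118 had a log2 ratio of 0.94, and at like depth none was called. Barcodes with more than 15% of non-mitochondrial UMIs from these genes, a limit chosen after seeing the data, numbered 465 above the cut in C (24.5%), 511 in T1 (21.3%) and 191 in T3 (16.7%). They held 77.9%, 69.4% and 57.4% of the Lars2 UMIs found above the cut. Lars2 stood at 17479, 18291 and 19640 CPM in them, against 652, 1099 and 1484 CPM in the 1226, 1333 and 773 barcodes above the cut with under 5% from the 3 genes.

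Barcodes of the same kind existed below the cut. There, 148, 333 and 236 barcodes passed 15% in C, T1 and T3, and Lars2 stood at 13399, 15995 and 15864 CPM in them. Across the 1896, 2396 and 1142 barcodes above the cut, the share of the 3 genes and the share of Lars2 had a Pearson r of 0.78, 0.70 and 0.80 in C, T1 and T3, and with Malat1 the r was -0.57, -0.40 and -0.42. Where the 3 genes took 20 to 30% of UMIs, the median share of Lars2 was 1.56%, 1.53% and 1.85% above the cut and 1.48%, 1.45% and 1.75% below it. Where they took 30 to 50%, it was 2.19% above and 1.47% below in C, and 1.91% and 2.18% in T1. At like depth and with the 3 genes over 15%, Lars2 had log2 ratios of 0.45, 0.21 and 0.24 in C, T1 and T3, and with the 3 genes under 5% of -0.30, 0.37 and 0.89. The correlations are descriptions across barcodes that share a library, a depth and the denominator of the shares. No stretch of 25 bases in the 9 annotated Lars2 transcripts was shared with a mitochondrial transcript or with the 3 genes. Only exact stretches in annotated transcripts were searched, and nuclear ribosomal RNA outside the 3 genes was not. Whether reads of ribosomal RNA were counted as Lars2 was not tested.

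Malat1 showed the reverse arrangement above the cut. It stood at 44173, 37146 and 52074 CPM in the barcodes rich in the 3 genes and at 117332, 86122 and 77090 CPM in those poor in them. Where the 3 genes took under 1% of UMIs, the median Malat1 share above the cut was 12.9% in C and 7.86% in T3, but 2.16% in T1, where the 209 such barcodes had a median of 35.9% ribosomal protein UMIs. T-marker barcodes numbered 2, 19 and 20 among the rich and 252, 169 and 370 among the poor. Of the rich barcodes 54.6%, 60.9% and 64.9% carried no assignable markers, against 25.04%, 27.3% and 32.5% of the poor.

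**Figure D4:**
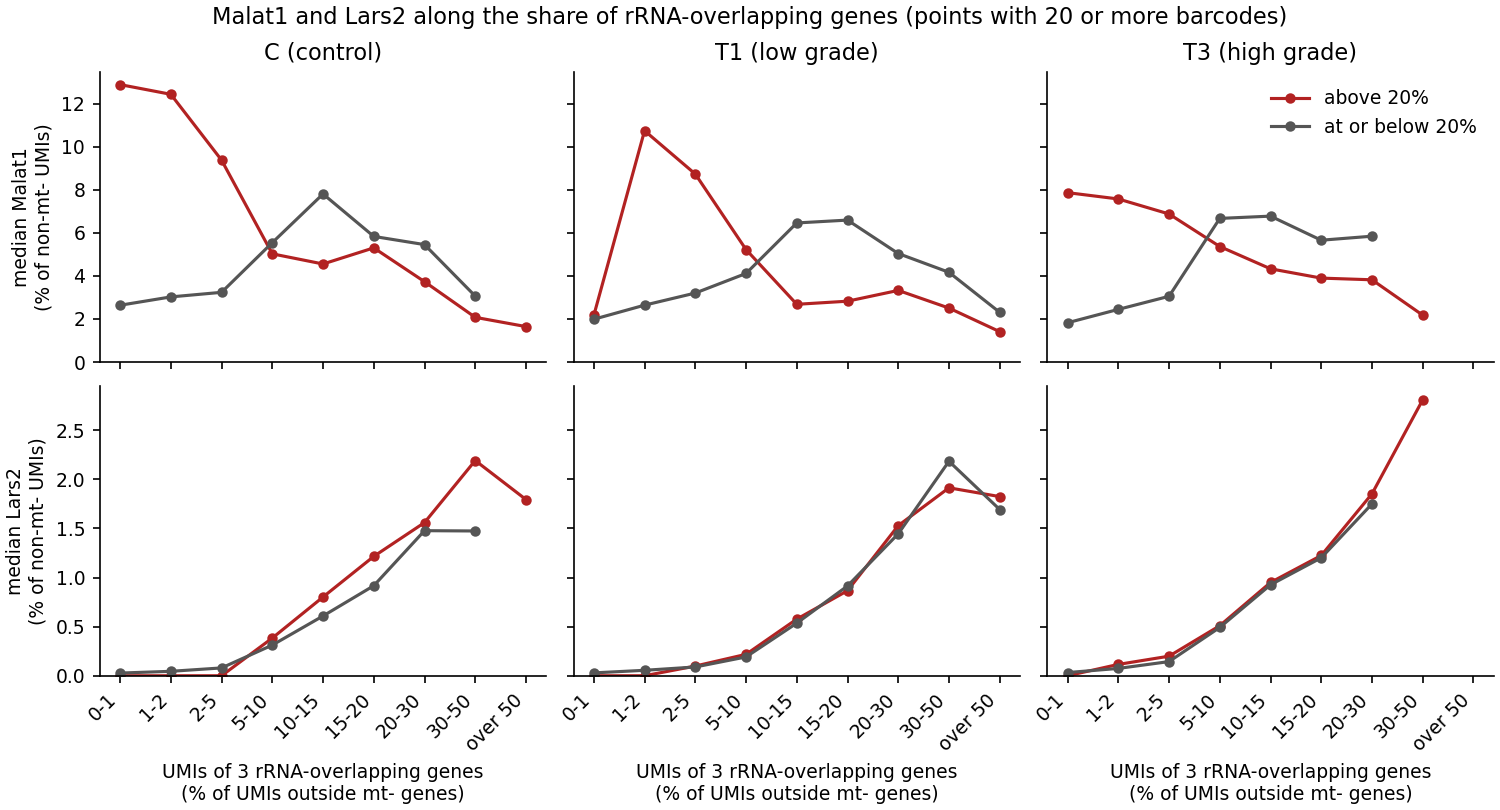
Median percent of non-mitochondrial UMIs from Malat1 (upper row) and Lars2 (lower row) for barcodes binned by their percent from Gm42418, AY036118 and Gm26917, above 20% (red) and at or below 20% mitochondrial UMIs (grey), for bins of 20 or more barcodes in C, T1 and T3. Lars2 rises with the share of the 3 genes in both sets up to the bin of 20 to 30%, with medians of 1.56%, 1.53% and 1.85% above and 1.48%, 1.45% and 1.75% below the cut in that bin, whereas Malat1 falls toward the right above the cut.

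The lineage of each barcode was read from marker genes. A barcode was given to B, T, epithelial, phagocyte or neutrophil markers when at least 2 markers of that list were found and they made up at least 80% of its UMIs over the 5 lists. By this rule the barcodes above the cut held B-marker barcodes at 47.3%, 47.0% and 17.9% in C, T1 and T3, T-marker barcodes at 14.1%, 9.64% and 36.5%, and barcodes with no assignable lineage at 35.1%, 39.0% and 41.6%. Over all barcodes at or below the cut, B-marker barcodes made up 52.97%, 55.6% and 25.1%, T-marker barcodes 36.1%, 34.1% and 38.4%, and unassigned ones 5.98%, 6.35% and 24.2%. Depth sets how many markers a barcode can show, so both sets were also thinned to 300 non-mitochondrial UMIs, leaving out 135, 267 and 88 shallower barcodes above the cut. B-marker shares were then 37.7%, 39.1% and 14.7% above the cut, against 34.2%, 33.1% and 16.3%. T-marker shares were 6.13%, 5.59% and 24.1%, against 17.1%, 15.7% and 15.2%. Unassigned shares were 54.1%, 54.5% and 58.5%, against 47.9%, 50.8% and 65.6%, so in T3 the share was then smaller above the cut.

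How far the sets differed in their share of T-marker barcodes depended on how depth was treated. Thinned, it was smaller above the cut in C and T1 and larger in T3, whereas over all barcodes it was smaller above the cut in C and T1 and within counting error in T3. At like depth the T-marker share was 14.8% above and 12.6% below in C, 9.78% and 10.5% in T1, and 39.5% and 13.7% in T3. The exact intervals overlapped in C (13.1 to 16.7% and 10.1 to 15.4%) and in T1 (8.49 to 11.2% and 8.45 to 12.8%). Unassigned barcodes at like depth made up 31.1%, 35.9% and 38.2% of those above the cut in C, T1 and T3, and 32.8%, 32.1% and 48.5% of those below it. Barcodes with both B and T markers at like depth made up 1.18%, 4.21% and 0.658% of those above the cut and 8.07%, 4.50% and 13.9% of those below it. The ribosomal protein share given above differed between the same sets of T3, and its part in this difference was not tested.

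**Figure D5:**
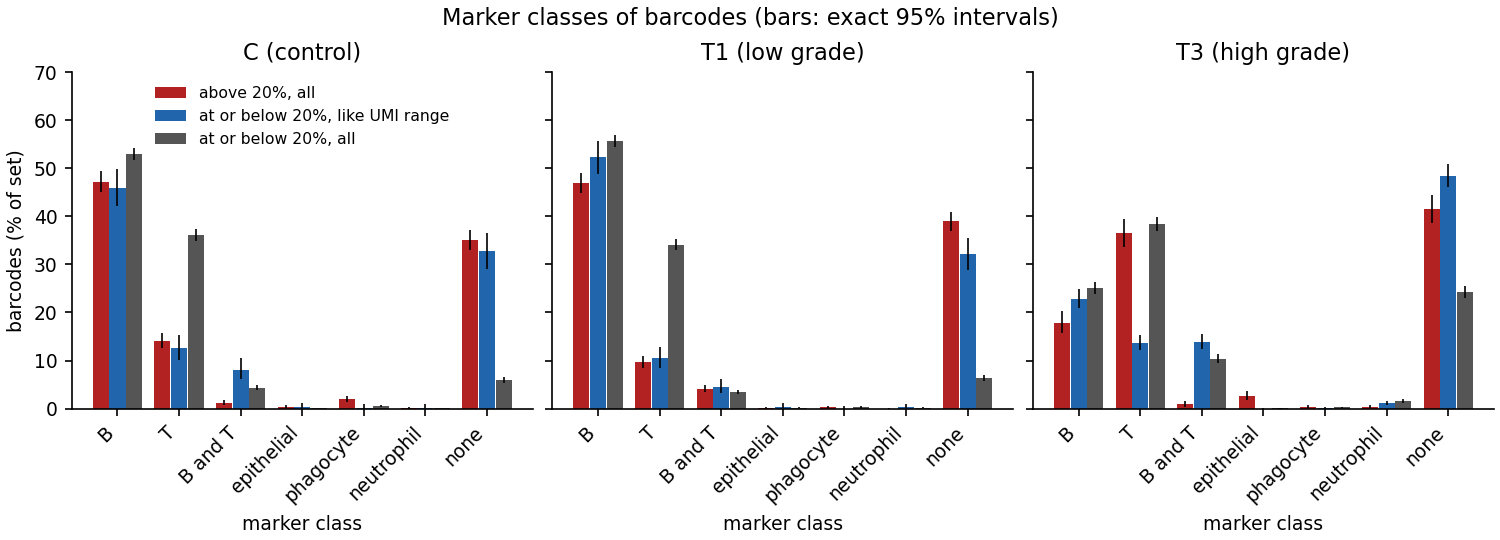
Percent of barcodes by marker class in C, T1 and T3, with exact binomial intervals, for all barcodes above 20% (red), barcodes at or below 20% of a like UMI range (blue) and all barcodes at or below 20% (grey). The T-marker class holds 14.1%, 9.64% and 36.5% of barcodes above 20%, and the unassigned class 35.1%, 39.0% and 41.6%.

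The summed T markers stood at 1423, 1281 and 4036 CPM above the cut, against 2701, 2641 and 3064 CPM. The log2 ratio was -0.92 in C, -1.04 in T1 and 0.40 in T3, and the last turned to -0.27 once centred on all genes. At like depth the ratio was -0.10, -0.05 and 0.66, and 0.26 in T3 once centred. Cd3e, a chain of the CD3 complex, stood at 141, 95.3 and 368 CPM, against 225, 172 and 226 CPM. In T3, Cd28, the costimulatory receptor of T cells, stood at 788 CPM above the cut, against 256 CPM, and Il7r, the receptor for the survival cytokine IL-7, at 664 against 306 CPM. Both were called higher at like depth too, with log2 ratios of 1.83 and 1.72. They were named for their ranks of 3 and 6 among the genes higher in T3 at like depth, so that call follows from the pick. The next gene, at rank 1, was named in the same way. Ifng, the cytokine interferon-gamma, was higher in T3 (101 against 23.2 CPM, log2 ratio 2.13) and lower in C (53.8 against 140 CPM, log2 ratio -1.38).

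The summed B markers stood at 6628, 7507 and 3033 CPM in C, T1 and T3, against 3922, 3859 and 2126 CPM. Their log2 ratios of 0.76, 0.96 and 0.51 became 0.12, 0.35 and -0.15 once centred on all genes, and were 0.32, 0.40 and -0.21 at like depth. The members did not move together. Ebf1, a transcription factor of B-cell commitment, had log2 ratios of 1.96, 1.98 and 0.98, whereas Cd79a, a signalling chain of the B-cell receptor, had -0.86, -0.61 and -0.27. Ptprc, the gene for the CD45 protein used in the sort, was higher in every library, at 1959, 1987 and 2799 CPM against 738, 673 and 958 CPM. At like depth it was called in T3 alone (log2 ratio 1.15). Of the 6 pan-leukocyte markers, Ptprc among them, only 1 was called higher in each library and 1 was lower in C. Summed, the 6 had log2 ratios of -0.043, 0.11 and 0.47 in C, T1 and T3, and of -0.68, -0.50 and -0.20 once centred on all genes. Lars2 was lower above the cut among B-marker barcodes of like depth in every library, at 4353, 3869 and 4281 CPM against 5347, 7092 and 5881 CPM. Those log2 ratios were -0.30 (exact interval -0.40 to -0.19), -0.87 (-0.95 to -0.79) and -0.46 (-0.61 to -0.31), all short of the 2-fold rule. With the share of the genes overlapping ribosomal DNA held over 15%, the ratios in B-marker barcodes were 0.40, 0.21 and -0.13, and with it under 5% they were -0.34, 0.13 and 0.15. Among T-marker barcodes of like depth the Lars2 ratios were -1.43, 0.06 and -0.50. With the share of the genes overlapping ribosomal DNA under 5%, they were 0.06 (exact interval -0.51 to 0.67), 0.97 (0.45 to 1.53) and 0.32 (0.04 to 0.61). Too few T-marker barcodes passed 15% for a ratio there.

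The plasma cell markers, Jchain among them, were lower in sum above the cut, with log2 ratios of -2.25, -1.14 and -1.68 in C, T1 and T3. Of those measured, 2 of 6 were called lower in C, 1 of 6 in T1 and 2 of 2 in T3, and 1 was higher in T1. Jchain, which joins antibody chains into polymers, stood at 780, 947 and 36.8 CPM in C, T1 and T3, against 4294, 2469 and 190 CPM, with ratios of -1.81, -0.95 and -3.78 at like depth. Iglc1 stood at 256 and 438 CPM in C and T1, against 3007 and 1521 CPM, and in T3 rested on 71 UMIs above the cut, with a log2 ratio of -1.32. Igha, the heavy chain of immunoglobulin A, had log2 ratios of -0.16, 0.21 and -2.39. Other heavy chain genes differed in direction, with Ighg3 at 4.79 in C and -1.15 in T1, and Ighg2b at -1.004, 1.05 and -2.79 in C, T1 and T3. Neutrophil markers were lower in sum by log2 ratios of -1.66, -1.06 and -2.26, and of the 76 barcodes of T3 with neutrophil markers 3 were above the cut. S100a8, an abundant calcium-binding protein of neutrophils, rested on 3 UMIs above the cut in C, 2 in T1 and 189 in T3.

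Epithelial transcripts, which lie outside the sorted population, were higher above the cut in T3. The 19 epithelial markers summed to 1719 CPM there, against 43.5 CPM below the cut, and to 335 against 73.5 CPM in C and 51.0 against 29.6 CPM in T1. At like depth they summed to 293 against 82.3 CPM in T3, and were the lower above the cut in C (65.9 against 330.1 CPM) and in T1 (59.5 against 88.3 CPM). Of the 32 epithelial-marker barcodes of T3, 30 were above the cut, with a median mitochondrial share of 63.1%, and in C 8 of 13 and in T1 1 of 8 were. Spink4 and Muc2, products of goblet cells, reached 370 and 120 CPM above the cut in T3, against 0.653 CPM each, and Krt19, a keratin of simple epithelia, 255 against 1.74 CPM. The 30 epithelial-marker barcodes above the cut in T3 had a median of 544 non-mitochondrial UMIs, and the deepest held 17686. The T3 levels over all barcodes are sums, and how far they rest on that barcode was not tested. At like depth Muc2 stood at 20.8 CPM, against 3.71 CPM, on too few UMIs for the rule. Above the cut Fabp2 was at 0 in T3, Aqp8 in C, and 9 of the 19 markers in T1. Of the epithelial-marker barcodes of T3 above the cut 14 lay in the like UMI range, out of 912, and 0 of 1770 below the cut did, which allows a share of up to 0.169% by the limit of 3 counts and 0.208% by the exact interval.

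Phagocyte markers went in different directions. They summed to 279 CPM above the cut in C, against 108 CPM, to 66.2 against 58.8 CPM in T1, and to 96.3 against 218 CPM in T3. In C 37 of the 65 phagocyte-marker barcodes were above the cut, and 24 of the 37 were rich in the 3 genes overlapping ribosomal DNA. Haemoglobin RNA, from red cells that the sort should leave out, was low above the cut in T3, where Hba-a1 stood at 472 CPM, against 8664 CPM.

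The comparison between the sets was repeated within a lineage, but not at like depth. Median non-mitochondrial UMIs of B-marker barcodes were 665, 659 and 632.5 above the cut in C, T1 and T3, against 4331, 4625 and 2661. For T-marker barcodes they were 809, 803 and 738, against 5655.5, 6067 and 4526. The counts below therefore carry the same difference in depth as those over all barcodes. Among B-marker barcodes 481 of 3946 genes were higher in all 3 libraries (12.2%) and 149 lower (3.78%), and among T-marker barcodes 1001 of 6290 were higher (15.9%) and 204 lower (3.24%). Of the 1455 genes higher over all barcodes, 391 were also higher within B-marker barcodes (26.9% of the former and 81.3% of the latter list) and 724 within T-marker barcodes (49.8% and 72.3%). The B-marker and T-marker barcodes above the cut are part of the same barcodes, so the lists are not independent. Map3k5, a stress-activated kinase, led the B-marker genes with log2 ratios of 2.32, 2.12 and 1.81, and Tsix led the T-marker genes with 2.68, 2.49 and 2.32. Ribosomal protein genes made up all of the 10 lowest named genes within B-marker barcodes and 8 of 10 within T-marker barcodes.

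Stress and death programmes were counted next. Of 13 heat shock genes 2, 1 and 1 were higher in C, T1 and T3 and of 18 immediate early genes 0, 0 and 3. Of 15 genes of p53 and apoptosis 4, 6 and 3 were higher, and 1 was lower in T1. Mitophagy genes, whose products clear damaged mitochondria, were higher in 3 of 9, 3 of 9 and 1 of 7. Over all genes 33.9%, 32.6% and 30.9% were called higher in the same comparisons. Median ratios of the heat shock and mitophagy lists were above 0 and fell below it once centred on all genes.

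Genes of dividing cells were also read. The replication-dependent histone genes, a list added after seeing the data, encode messengers without a poly(A) tail in dividing cells and were higher in 42 of 45, 35 of 39 and 25 of 28. At like depth none was higher and 5 of 14, 6 of 12 and 0 of 16 were lower. Of the cell cycle genes 8 of 18, 14 of 17 and 1 of 5 were higher, and at like depth 1 of 4, 2 of 4 and 0 of 1. Over all genes 33.9%, 32.6% and 30.9% were higher in C, T1 and T3 over all barcodes. At like depth 1.36%, 0.924% and 8.89% of all genes were higher and 0.680%, 0.637% and 4.79% lower. The cell cycle counts are small and nothing is read from them for the list. Mki67, a marker of proliferating cells, stood at 261 CPM above the cut in C, against 29.0 CPM, and at 128 against 14.9 CPM in T1. It stayed past the rule at like depth in both, with log2 ratios of 1.56 and 2.47, and in T3 rested on 7 UMIs above the cut.

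The composition of the barcodes changed with the mitochondrial share. From the barcodes of 20 to 30% to those of 80 to 100%, Malat1 went from 10.7%, 7.5% and 7.7% of non-mitochondrial UMIs in C, T1 and T3 to 1.05%, 1.45% and 1.90%. The 3 genes overlapping ribosomal DNA went from 5.63%, 7.36% and 5.31% to 20.8%, 16.7% and 26.2%. Ribosomal protein genes went from 9.04%, 15.04% and 11.4% to 22.2%, 26.97% and 19.97%. The steps between were uneven. From 30 to 50% ribosomal protein genes made up 9.83%, 11.2% and 12.8%, and from 50 to 80% 11.7%, 14.9% and 14.7%, so in T1 they fell first. The 3 genes overlapping ribosomal DNA stood at 5.23% in T3 from 30 to 50%. The range of 80 to 100% holds 38, 45 and 30 barcodes with 5223, 6848 and 7197 non-mitochondrial UMIs in all. In T1 257 barcodes above the cut had more than 25% of their UMIs from ribosomal protein genes, with a median mitochondrial share of 24.3%, close to the cut. In C 44 barcodes did, with a median mitochondrial share of 74.9%, and in T3 92 did, with a median of 53.7%. Both B and T markers were found in 0, 69 and 2 of these barcodes in C, T1 and T3, and 34, 130 and 74 were unassigned.

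Barcodes on either side of the cut were also compared. Those of 18 to 20% and of 20 to 22% numbered 134 and 139 in C, 229 and 234 in T1, and 157 and 127 in T3. Ribosomal protein genes made up 12.7% just outside and 10.1% just inside the cut in C, 19.1% and 19.1% in T1, and 12.7% and 11.7% in T3. Malat1 made up 8.68% and 10.6%, 6.96% and 6.56%, and 7.38% and 7.72%. Larger steps lay in C, where nuclear oxidative phosphorylation genes went from 2.02% just outside to 0.739% just inside, immunoglobulin constant genes from 6.31% to 1.99% and the genes overlapping ribosomal DNA from 3.08% to 4.88%. Epithelial markers went from 5641 to 12.3 CPM in C, from 95.8 to 33.1 CPM in T1 and from 1988 to 197 CPM in T3. All of these values are sums of UMIs, so a few deep barcodes can set them. In C 1.49% of the barcodes of 18 to 20% carried epithelial markers, and 0% of those of 20 to 22%. The deepest epithelial-marker barcode at or below the cut in C held 37470 non-mitochondrial UMIs, and the range of 18 to 20% held 211679 in all. Whether that barcode set the steps in C was not tested.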

How the data were processed

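CD45+ colon cells of 3 mouse groups were sequenced as 1 library each. The deposited tables hold raw UMI counts for every gene in every barcode. CASAVA 1.8, Cell Ranger 3.1.0, Seurat 3.1.4 and GRCm38 are named in the submitters' processing notes, without roles. How the reads were aligned is not given in the sources used here.

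The members and gene lists were chosen with earlier results of these data known. From the counts, python 3.11.15 with scipy 1.17.1 gave the mitochondrial share of each barcode (30905 genes, 13 with an mt- symbol), summed each set, and computed CPM without mitochondrial UMIs with exact conditional intervals. The calculation was tested on simulated data. Shares have exact Clopper-Pearson intervals. Named genes were the 15 higher and 15 lower in all 3 libraries with the largest smallest ratio, 10 and 10 within B-marker and T-marker barcodes, the 5 highest and 5 lowest of each library, mitochondrial genes and list members, leaving out predicted genes and variable segments from the ranked picks. Gm26518, Cd28, Il7r and Ifng were named after their values were seen. Other cuts, fold rules, UMI minimums, scalings, thinning depths, marker rules and sets of like depth were tried. All 124 marker genes named were found.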

Additional observations from a re-analysis of the deposited data

Results flagged for a closer look

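Some log2 ratios, above over at or below 20% mitochondrial UMIs, pointed in opposite directions in different libraries, and none of these differences between libraries was tested. Over all genes, 19 were past the 2-fold rule in opposite directions in a pair of libraries, and 5 of them belong to the named genes or lists. The complement genes of macrophages were higher in C and lower in T3: C1qa at 1.24 and -2.45, C1qb at 1.38 and -3.77, and C1qc at 1.07 and -1.33. Their counts are small, with 34 UMIs of C1qa above the cut in C and 2 in T3. The summed phagocyte markers stood at 1.37 in C and -1.18 in T3. Ighg2b, an immunoglobulin heavy chain constant gene, was at -1.004 in C, 1.05 in T1 and -2.79 in T3, and Ighg3 at 4.79 in C and -1.15 in T1. The summed T markers stood at -0.92, -1.04 and 0.40 in C, T1 and T3 (at like depth -0.10, -0.05 and 0.66), the markers of type 2 innate lymphoid cells at -0.46, -0.75 and 1.26, and the pan-leukocyte markers at -0.043, 0.11 and 0.47.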

How the results depend on the processing

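No paired analysis was possible because each group is 1 library. Mitochondrial shares of 10%, 30% and 50% as the cut gave 32.6%, 15.3% and 3.53% of barcodes in C, 40.6%, 17.3% and 5.37% in T1, and 41.9%, 9.59% and 2.35% in T3. With at least 200 detected genes it was 22.4% in C and 25.8% in T1. Counting Lars2 and 1 pseudogene as mitochondrial was also tried. Counts of genes depended on the scale. With a 1.5-fold rule 1096, 908 and 615 genes were lower in C, T1 and T3, and 3966 were higher in T3. With a 3-fold rule 1063, 922 and 423 were higher and 186, 83 and 143 lower. Centred on the median of all genes, 910, 875 and 302 were higher and 1720, 1416 and 1108 lower, and with CPM over all UMIs 1125, 994 and 506 were higher and 1536, 1312 and 928 lower. As means of per-barcode CPM, 1965 were higher in T1 and 1283 in T3, and with the barcodes above 30% alone as the upper set 588 were lower in T1. At like depth, 36, 29 and 258 were higher and 18, 20 and 139 lower. Of the genes ranked over all barcodes, 6 changed sign at like depth, all in T1: Lars2 to -0.49, Zfc3h1 to -0.55, Rpl39 to 0.029, Rps23 to 0.042, Rps28 to 0.10 and Rpl30 to 0.011. Several lists also changed the sign of their median ratio at like depth, among them the genes overlapping ribosomal DNA to -0.46 in T1, nuclear oxidative phosphorylation genes to 0.07 in T1, and the histone genes to -0.83, -1.04 and -0.18 in C, T1 and T3.

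B-marker barcodes above the cut were 44.4%, 47.4% and 20.8% when thinned to 500 UMIs and T-marker ones 12.8%, 9.61% and 40.03%. A stricter marker minimum gave 34.0%, 33.3% and 13.0% B-marker and 6.86%, 4.17% and 22.7% T-marker barcodes, or 19.6%, 19.4% and 9.49% and 1.48%, 1.08% and 10.3% once thinned. At like depth B-marker barcodes were 50.6% in C and 49.8% in T1, and T-marker ones 39.5% in T3. With the stricter minimum 649 genes were higher in all 3 libraries within T-marker barcodes. Centring turned the medians of these lists below 0: heat shock (-0.52, -0.47 and -0.32 in C, T1 and T3), mitophagy (-0.28, -0.28 and -0.58), ATF4 and unfolded protein response (-0.61, -0.57 and -0.19), immediate early (-0.56 in C, -0.20 in T3), p53 and apoptosis (-0.38 in C, -0.45 in T1), mitochondrial RNA handling (-0.45 in T1, -0.31 in T3), and in T3 glycolysis (-0.56), MHC class II (-0.49) and cell cycle (-0.17). With a minimum of 20 UMIs the median of the ATF4 list in T1 was -0.010. The cause of these changes was not tested. Few UMIs per barcode limit what the markers of single barcodes can show.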
